A study of Mus musculus with 9 samples.

Results

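The effect of DPG on colitis was read here in 6 of the 9 PCR arrays of the series, the 3 of mice given DSS together with DPG (DSS+DPG) and the 3 of mice given DSS alone (DSS), for all 84 genes of a mouse wound healing panel. The 3 arrays of untreated mice (UN) served as a level beside which both were placed. Female C57bl6J mice of 8 to 9 weeks drank water with 3% dextran sodium sulphate (DSS) over 7 days, with or without 8 mg/kg/day of dipotassium glycyrrhizate (DPG) by oral gavage in phosphate-buffered saline, while UN mice drank plain water. Colon RNA from 5 mice of a group was pooled, and each pool was run on 3 arrays, so that differences between arrays of a group are technical and every p-value below measures array spread, not the spread between mice.

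DSS damages the lining of the colon, and bacteria that reach the tissue beneath it draw neutrophils and monocytes through chemokines, while cytokines such as interleukin 1 beta and interleukin 6 spread the alarm. Repair follows in overlapping steps, in which fibroblasts lay down collagens, proteases clear the provisional matrix, and epithelial cells held by integrins and cadherins close the wound. DPG is a salt of glycyrrhizin, a compound of liquorice root that binds HMGB1, an alarm protein released by injured cells.

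The threshold cycle (Ct) of a well is the PCR cycle at which its signal crosses a set line, a log2 scale on which a later cycle means less template. The delta Ct of a gene is its distance from a reference, the average of the housekeeping genes Actb, B2m, Gapdh, Gusb and Hsp90ab1 of its own array, so that a higher delta Ct means a lower level. A Ct that was missing or later than 38 was taken as 38. The median Ct of the panel was 26.57 to 26.77 in the DSS arrays and 29.6 to 29.69 in the DSS+DPG arrays. The 5 reference genes were themselves later in DSS+DPG than in DSS, by 0.393 cycles for Hsp90ab1, 1.06 for Gapdh, 1.25 for Gusb, 1.63 for Actb and 1.71 for B2m, with no overlap between arrays for any of them (two-sided exact permutation test, p = 0.1, which is the lowest value possible with 3 arrays a group). The control wells for the PCR itself differed by 0.0433 cycles between the groups, with p = 0.6 in the same exact test. The control wells for reverse transcription came 0.232 cycles earlier in DSS+DPG, with no overlap (p = 0.1, same exact test). Array 3 mostly lay between arrays 1 and 2, in 73.4% of the UN wells, 85.5% of the DSS wells and 82.3% of the DSS+DPG wells with 3 distinct Ct. Whether array 3 is an independent run could not be settled, and it counts as a full array in every standard error and p-value below. Without array 3 of both DSS and DSS+DPG, 62 genes fell and 11 rose, against 64 and 11 with it, and the calls of Ifng and Col14a1 were lost.

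The promoters of 3 of the genes with the largest falls, and of a gene that rose, are shown because the first 3 share a short stretch. The letters are the 250 bases before the gene start from RefSeq on GRCm38.p6, read 5′ to 3′ on the strand of the gene. Capitals in Cxcl3 (chr5:90785851-90786100, plus strand) and Cxcl1 (chr5:90890995-90891244, plus strand) mark GGGAATTTCCC, the longest run of letters that these neighbouring chemokine genes have in common in these windows, which is of the type bound by NF-kappaB. Capitals in Il6 (chr5:30012864-30013113, plus strand) mark the same stretch with 1 difference, A5T, counted from its 5′ end. In Mif (chr10:75860278-75860527, minus strand) they mark TGACGTCA, the cAMP response motif.
Cxcl3: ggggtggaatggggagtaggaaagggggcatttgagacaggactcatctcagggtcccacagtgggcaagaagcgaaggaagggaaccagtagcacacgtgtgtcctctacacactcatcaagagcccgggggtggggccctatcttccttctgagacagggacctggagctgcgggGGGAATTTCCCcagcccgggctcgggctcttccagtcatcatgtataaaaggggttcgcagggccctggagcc
Cxcl1: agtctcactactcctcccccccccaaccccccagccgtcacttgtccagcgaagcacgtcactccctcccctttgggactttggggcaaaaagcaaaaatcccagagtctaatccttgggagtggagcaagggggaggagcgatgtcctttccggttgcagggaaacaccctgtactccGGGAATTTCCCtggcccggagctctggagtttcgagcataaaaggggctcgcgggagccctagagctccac
Il6: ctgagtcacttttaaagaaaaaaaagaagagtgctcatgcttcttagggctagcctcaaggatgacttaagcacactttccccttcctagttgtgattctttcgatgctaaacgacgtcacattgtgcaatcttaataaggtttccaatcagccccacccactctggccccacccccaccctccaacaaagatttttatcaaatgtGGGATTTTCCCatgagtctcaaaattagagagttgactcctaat
Mif: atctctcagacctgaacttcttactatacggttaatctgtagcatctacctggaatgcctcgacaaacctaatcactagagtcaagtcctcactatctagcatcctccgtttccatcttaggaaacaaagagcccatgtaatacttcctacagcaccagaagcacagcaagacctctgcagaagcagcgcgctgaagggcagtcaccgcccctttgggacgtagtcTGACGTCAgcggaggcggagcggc

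GGGAATTTCCC was searched on both strands and occurred in 14 of 32851 promoters of the same length (0.0426%), or in 171 (0.521%) where 1 difference was allowed. Of the 84 panel genes, 54 had a promoter in the table, and with 1 difference allowed 3 of them held the stretch, namely Cxcl3, Cxcl1 and Il6. It began 73 bases before the gene start in Cxcl3, 71 in Cxcl1 and 44 in Il6. TGACGTCA, which reads the same on both strands, occurred in 508 promoters (1.55%) and among the panel genes in Mif, where it began 24 bases before the start. No difference was allowed for TGACGTCA, and the Il6 window also holds CGACGTCA, which differs from it in 1 letter. Both motifs were chosen with the changes of these genes known, the marked stretches do not overlap, and a match describes the letters only.

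Most of the panel was lower in mice that received DPG. With the mean of the 5 reference genes, 75 of 84 genes changed (89.3%), of which 64 fell (76.2%) and 11 rose (13.1%), and 9 did not pass the test (limma over all 9 arrays, Benjamini-Hochberg over 84 genes, adjusted p under 0.05). In DSS+DPG the level of the median gene was 2.46-fold below that in DSS, a log2 fold change of -1.30. Falls of at least 3.5-fold, the size named in the methods, were seen in 29 genes (34.5%), falls of at least 10-fold in 12, and rises of at least 2-fold in 4. The arrays of both groups did not overlap in 76 genes (90.5%). Since nearly all genes passed, the members are described below mainly by the size and order of their changes.

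The reference sets the zero of this scale, but not the order of the genes. Before any reference, 81 of 84 genes came later in DSS+DPG, by a median of 2.51 cycles. Taking the 5 reference genes as fixed, as above, removes 1.21 of these cycles. With Itga3, Mif and Hsp90ab1 (geometric mean), which equals the reference behind the deposited delta Ct, all genes shifted by -0.83, so that 75 fell and 2 rose. With the median Ct of the 84 genes in each array as reference they shifted by 1.77, so that 25 fell and 48 rose. The median change of the panel was then 0.47 and not 0, since the median of the changes is not the change of the median Ct, so a value with this reference is read against 0.47. All falls smaller than 1.77 on the log2 scale therefore turn into higher values with the median Ct, and each rise below 0.83 turns into a lower value with Itga3, Mif and Hsp90ab1. The 25 genes that fell with the median Ct fell under every one of the 11 references, no reference included, whereas no gene rose under all 11. For this reason the distance from the panel median (the median log2 fold change of the 84 genes), which does not change with the reference, is given for each class.

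**Figure D1:**
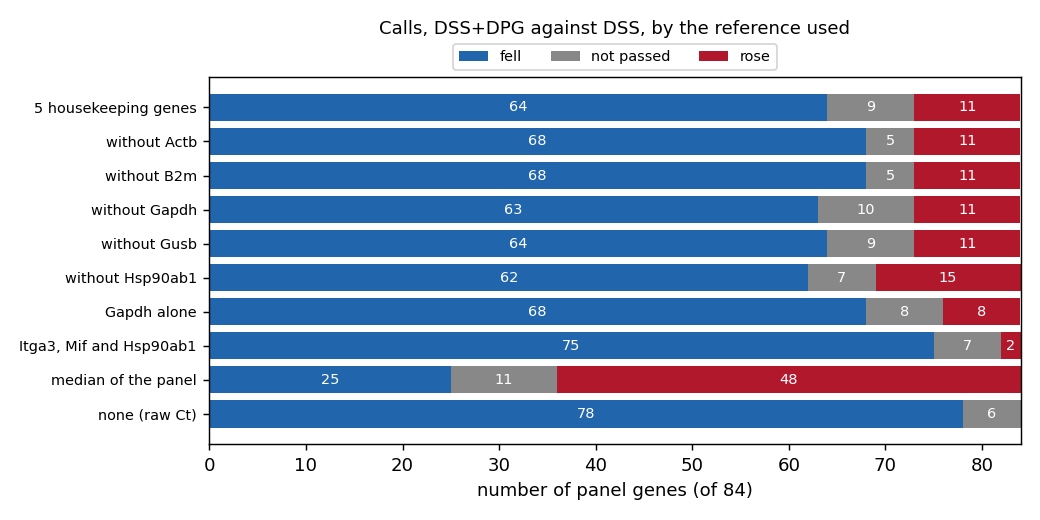
Number of the 84 panel genes that fell, did not pass or rose in DSS+DPG against DSS (horizontal axis, genes), with each reference on the vertical axis. With the 5 housekeeping genes 64 fell and 11 rose, with the median Ct 25 and 48, and with raw Ct 78 and 0.

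Of the 7 classes of the array, inflammatory cytokines and chemokines stood lowest, with a median of -2.62 and a distance of -1.32 from the panel median. In this class 12 of 13 genes fell, 10 of them at least 3.5-fold. Over all 84 genes 76.2% fell and 34.5% fell at least 3.5-fold. Structural constituents of the extracellular matrix came next, at -1.79 (distance -0.49), with 9 of 10 genes lower and 4 of them at least 3.5-fold. Matrix remodeling enzymes had a median of -1.51 (distance -0.21) and 12 of 16 genes lower. Signal transduction genes had one of -1.22 (distance 0.08) and 8 of 11 lower. These shares, 75% and 72.7%, are near that of all genes. With the median Ct as reference the medians of both were above 0, at 0.26 and 0.56 against 0.47 for the panel. Growth factors, at -0.98 (distance 0.32), had 12 of 17 genes lower and 4 higher, beside 76.2% and 13.1% of all genes. They were the largest class and held the most rises by number, with a span from -4.98 (Csf3) to 1.48 (Csf2). Tnf and Mif are also counted in this class, and Ptgs2 among the signal transduction genes, not in the inflammatory class. Cell adhesion molecules, at -0.79, and cytoskeleton regulators, at -0.40, resisted most, and no member of either fell 3.5-fold. Their medians lay 0.52 and 0.90 above the panel median, and like that of the growth factors they were above 0 with the median Ct as reference.

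**Figure D2:**
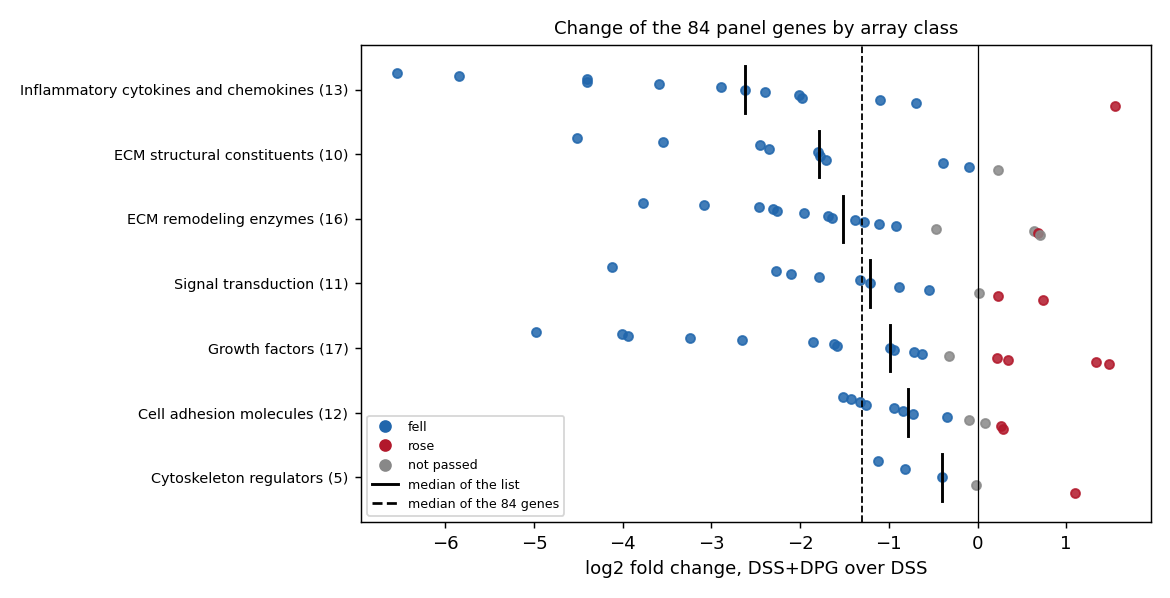
Log2 fold change of each of the 84 genes in DSS+DPG over DSS (horizontal axis, reference of 5 housekeeping genes) in the 7 array classes (vertical axis, number of genes in brackets). Points are genes, solid bars class medians and the dashed line the panel median of -1.30, and the inflammatory class lies farthest to the left of it. With the median Ct as reference the medians of the 5 lower rows are above 0.

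Chemokines that attract neutrophils fell most. Cxcl3 had a delta Ct of 2.82, 2.83 and 2.84 in the DSS arrays and of 9.61, 9.15 and 9.37 in the DSS+DPG arrays. The groups lay far apart, and the level fell 93.5-fold (log2 fold change -6.55, standard error 0.14, adjusted p = 1.7e-09, limma). Cxcl1, a second ligand of the same neutrophil receptor, had 5.31, 5.46 and 5.41 in DSS and 9.66, 9.95 and 9.78 in DSS+DPG. All DSS+DPG arrays stood at the height of the UN arrays, which had 9.96, 9.67 and 9.86, and the fall from DSS was 21.2-fold (-4.40, standard error 0.10, adjusted p = 1.7e-09, limma). This height depends on the reference. With Itga3, Mif and Hsp90ab1 every DSS+DPG array of Cxcl1 was below UN, and the raw Ct was 33.11 to 33.38 in DSS+DPG against 31.66 to 31.95 in UN. Cxcl5, which intestinal epithelium makes in inflammation, went from 1.12, 0.95 and 1.13 to 4.70, 4.58 and 4.68, a fall of 3.59 on the log2 scale (standard error 0.08). Its DSS+DPG arrays remained above the UN level of 6.00 to 6.24. Among chemokines that call monocytes, Ccl12 fell by 2.62 and Ccl7 by 2.01.

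Innate cytokines moved with them. Il6, which drives the acute phase response, had a delta Ct of 4.57, 4.45 and 4.49 in DSS and of 10.75, 9.93 and 10.37 in DSS+DPG. This is a 57.6-fold fall (-5.85, standard error 0.19, adjusted p = 1.8e-08, limma), and the DSS+DPG arrays, although spread over most of a cycle, were all lower than the DSS arrays. Il1b, the interleukin released by the inflammasome, gave 0.88, 0.90 and 0.89 in DSS and 5.31, 5.29 and 5.27 in DSS+DPG. Its arrays agreed within a few hundredths of a cycle in each group, and it fell 21.1-fold (-4.40, standard error 0.02, adjusted p = 1.2e-12, limma). Ptgs2, the inducible cyclooxygenase that makes prostaglandins, had 3.28, 3.30 and 3.29 in DSS against 7.62, 7.16 and 7.45 in DSS+DPG, a fall of 4.12 (standard error 0.10). The DSS+DPG arrays of Ptgs2 were lower than those of UN, at 6.57 to 6.61. Tnf, a master cytokine of inflammation, fell less, by 1.61 (standard error 0.06), from 4.81 to 4.86 in DSS to 6.34 to 6.58 in DSS+DPG, and its change was 0.16 with the median Ct as reference, where the panel's own median was 0.47. Il10, which restrains macrophages and T cells, fell by 2.40, from 7.67 to 7.79 in DSS to 9.86 to 10.34 in DSS+DPG.

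**Figure D3:**
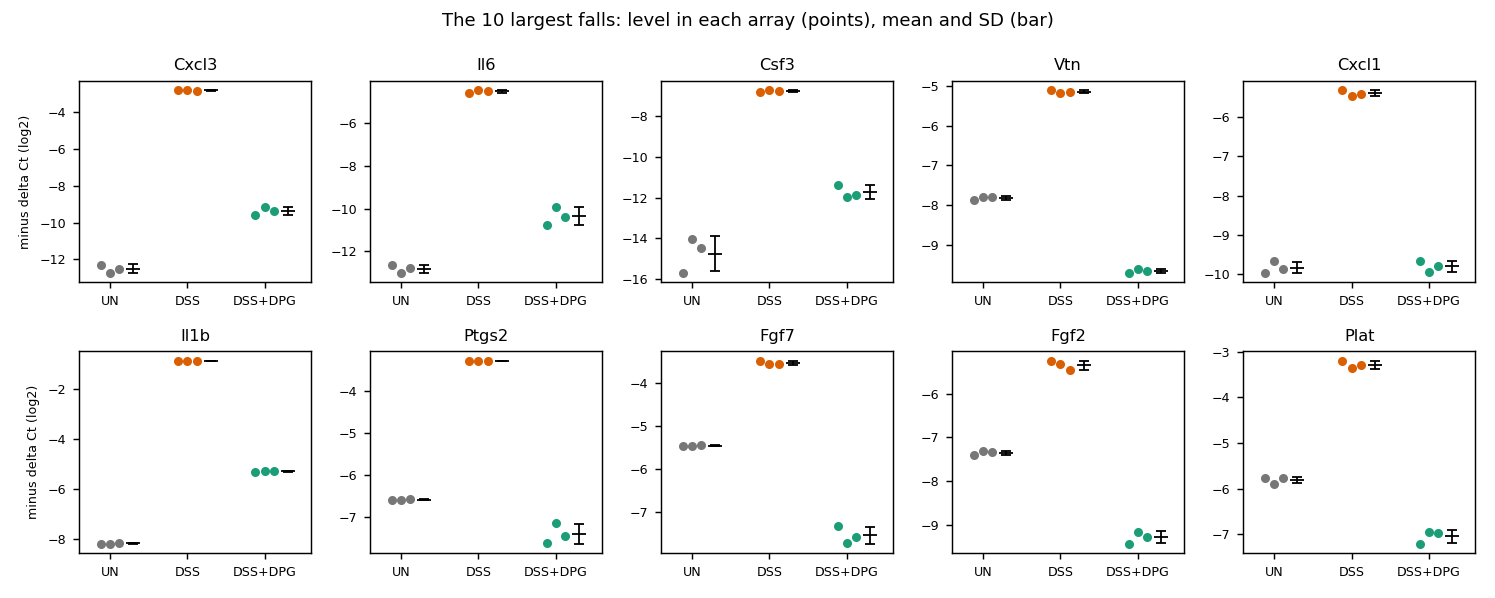
Level of the 10 genes with the largest falls in each array, as minus delta Ct (vertical axis, log2, each panel with its own range), in the UN, DSS and DSS+DPG groups (horizontal axis). Points are the 3 arrays of a pool and bars the mean with SD, and in all 10 genes every DSS+DPG array lies below every DSS array.

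The colony-stimulating factors went opposite ways. Csf3, which releases granulocytes from the bone marrow, had a delta Ct of 6.80, 6.73 and 6.74 in DSS and of 11.35, 11.98 and 11.87 in DSS+DPG. It fell 31.5-fold (-4.98, standard error 0.40, adjusted p = 5.7e-06, limma), and its mean Ct in DSS+DPG was 35 or later, where replicate wells scatter. Csf2, which supports granulocytes and macrophages and their survival in tissue, had 10.56, 10.30 and 10.39 in DSS and 9.21, 8.62 and 8.98 in DSS+DPG. It was higher in all DSS+DPG arrays, at a level within that of UN (8.44 to 9.74), and rose 2.79-fold (1.48, standard error 0.32, adjusted p = 0.0025, limma). With Itga3, Mif and Hsp90ab1 as reference the value was 0.65 and did not pass.

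Of the T cell cytokines and the interferon-induced chemokine of the panel, 4 of 5 fell, beside 76.2% of all genes, and 1 rose. Il4, a cytokine of type 2 responses, fell by 1.98, Il2, the growth factor of T cells, by 1.10 and Ifng, which activates macrophages, by 0.69 (adjusted p = 0.0086, limma), Il2 and Ifng being higher with the median Ct as reference and Il4, at -0.21, no longer passing. Il2 lay at the end of the scale in DSS+DPG, where 2 of its arrays were set to the limit of 38 and the mean Ct was 37.85. Its fall therefore depends on the limit, and it gave 1.21 with a limit of 35 cycles. Ifng in DSS+DPG, with delta Ct of 8.07, 7.66 and 7.87, stayed well above its UN level of 11.95 to 12.69, and without array 3 of both groups its fall of 0.70 no longer passed. Cxcl11, a chemokine induced by interferon, fell by 2.89, but its DSS+DPG arrays spread from 11.73 to 13.94 in delta Ct, its standard error was 0.51, its mean Ct in DSS+DPG was 36.45, and with the median Ct its change of -1.12 did not pass. Cd40lg, the ligand by which helper T cells stimulate B cells and macrophages, went the other way. Its delta Ct was 12.19, 11.61 and 11.79 in DSS and 9.84, 10.67 and 10.44 in DSS+DPG, with no overlap. This was the largest rise of the panel with the 5 reference genes, 2.92-fold (1.55, standard error 0.29, adjusted p = 0.0011, limma), and the UN arrays, at 12.69 to 13.50, were lower than both. The raw Ct of Cd40lg was late in both groups, 34.09 in DSS and 33.76 in DSS+DPG on average.

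Stromal growth factors, made by fibroblasts and smooth muscle to feed epithelium, came next among the role groups, with a median of -3.24 over 5 genes. All 5 were lower, beside 76.2% of all genes. Fgf7, keratinocyte growth factor, had a delta Ct of 3.47, 3.56 and 3.55 in DSS and of 7.33, 7.72 and 7.57 in DSS+DPG, a 16.2-fold fall (-4.01, standard error 0.09). Fgf2, a mitogen of fibroblasts and endothelium, had 5.26, 5.32 and 5.46 in DSS and 9.43, 9.16 and 9.27 in DSS+DPG, a 15.4-fold fall (-3.94, standard error 0.08). In both genes every DSS+DPG array was also lower than every UN array, which had 5.43 to 5.47 for Fgf7 and 7.32 to 7.40 for Fgf2. Fgf10, a relative of Fgf7 that acts on the same receptor, fell by 3.24. Igf1, the insulin-like growth factor, fell by 1.59 and Hgf, hepatocyte growth factor, by 0.95. With the median Ct as reference Igf1 was at 0.19 and Hgf at 0.83, against 0.47 for the panel. A second listing of these arrays given with the study holds later Ct in DSS for Fgf2, Fgf7, Vtn and Col3a1, which would make these falls smaller, and a later Ct in DSS+DPG for Hgf, and the deposited Ct were used here.

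Members of the TGF beta axis and CCN genes fell in 4 of 4 cases, beside 76.2% of all genes, 3 of them at least 3.5-fold, with a median of -2.19. Ctgf, a matricellular protein induced by TGF beta, fell by 2.65, Tgfbr3, a coreceptor, by 2.27, Wisp1, a relative of Ctgf, by 2.10 and Tgfb1 itself by 0.71. With the median Ct as reference Wisp1 was at -0.33 and did not pass, and Tgfb1 was at 1.06. The arrays of Ctgf in DSS+DPG differed, with 7.06, 5.57 and 6.69. Among ligands of the EGF receptor, Hbegf fell by 1.85, Egf did not pass at -0.32 (adjusted p = 0.064) and Tgfa rose by 0.22, while the receptor Egfr fell by 1.32, or was at 0.45 with the median Ct. Hbegf was at -0.08 with that reference and did not pass. Egf passed as a fall with 4 of the other reference sets made of genes, and Tgfa did not pass as a rise with Gapdh alone. Of the vascular factors, Angpt1 fell by 0.98 and Pdgfa by 0.63, both being higher with the median Ct, and Vegfa, the main signal for new vessels, rose by 0.35, from a delta Ct of 4.83 to 4.91 in DSS to 4.43 to 4.62 in DSS+DPG. Wnt5a, a ligand of stromal cells in healing crypts, fell by 1.78, but was at -0.01 with the median Ct and did not pass.

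Mif, a cytokine stored by macrophages and epithelium that opposes glucocorticoids, rose while most inflammatory mediators fell. It had a delta Ct of 1.51, 1.56 and 1.59 in DSS and of 0.48, 0.60 and -0.43 in DSS+DPG. The arrays of DSS+DPG were all higher in level, array 3 by far more than the others, and the rise was 2.53-fold (1.34, standard error 0.24, adjusted p = 0.00097, limma). Without DSS+DPG array 3 it was 1.01, and without array 3 of both groups 0.99. The methods' t-test, run on the levels, did not pass it. Mif and Cd40lg were the 2 genes that rose under each of the 9 references made of genes, of which 1 contains Mif itself, although raw Ct gave 0.13 for Mif and 0.34 for Cd40lg, neither of which passed.

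**Figure D4:**
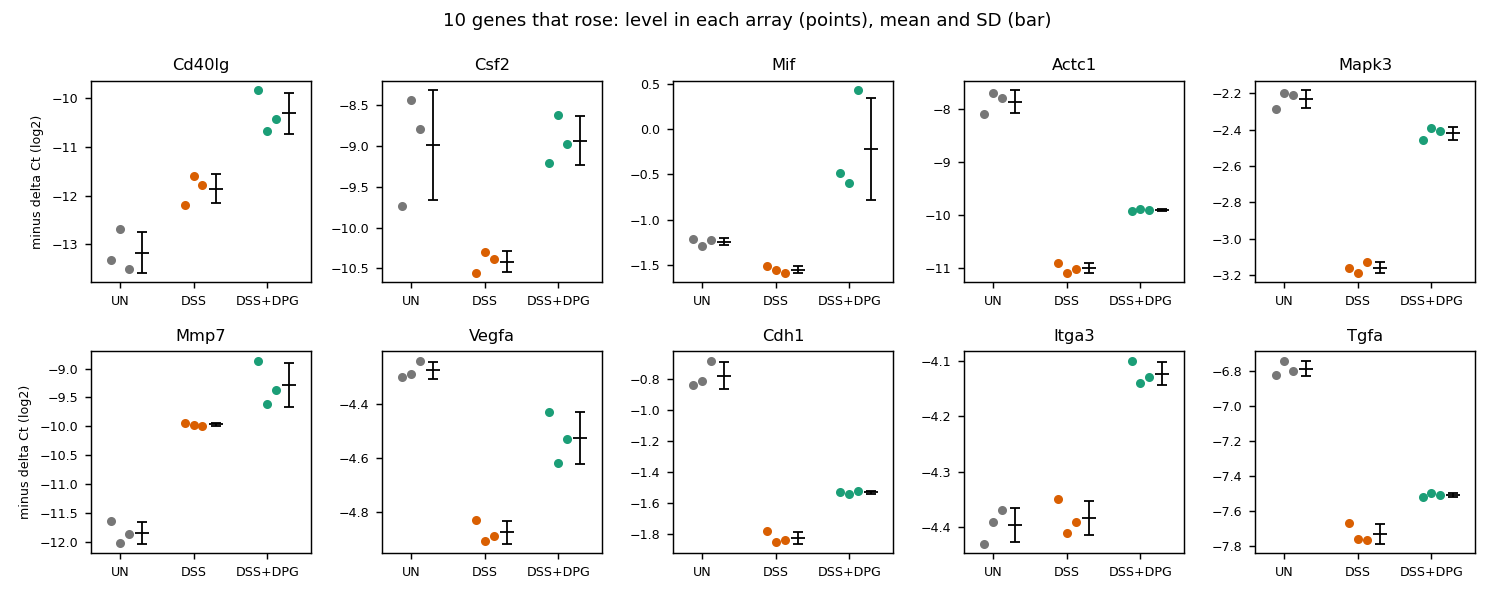
Level of 10 of the 11 genes that rose with the reference of 5 housekeeping genes, as minus delta Ct in each array (vertical axis, log2, each panel with its own range) in the UN, DSS and DSS+DPG groups (horizontal axis). Points are arrays and bars the mean with SD. With Itga3, Mif and Hsp90ab1 as reference only Mif and Cd40lg still passed as rises, and Mapk3, Mmp7, Vegfa, Cdh1, Itga3 and Tgfa were lower.

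Collagens of fibrils fell in 6 of 6 genes, beside 76.2% of all genes, over a wide range. Col3a1, the collagen of granulation tissue, had a delta Ct of -3.05, -2.95 and -2.97 in DSS and of 0.52, 0.60 and 0.55 in DSS+DPG, an 11.7-fold fall (-3.55, standard error 0.04, adjusted p = 4.4e-11, limma). Its DSS+DPG arrays also lay below UN, at -1.54 to -1.49. The second listing named above holds a later Ct in DSS for Col3a1, which would make its fall smaller. Col1a1, which forms the main collagen of scars with Col1a2, fell by 0.39, from 2.46 to 2.56 in DSS to 2.87 to 2.93 in DSS+DPG, and it was higher with the median Ct as reference. Col1a2 fell by 1.80, and its -0.03 with the median Ct did not pass. The chains of collagen V, which nucleates fibrils, fell by 2.35 (Col5a2), 1.77 (Col5a3) and 1.71 (Col5a1), the last pair of which were at 0.00 and 0.06 with the median Ct. Col14a1, a collagen on the surface of fibrils, changed by -0.10 (adjusted p = 0.037, limma). The call was lost without a change of sign in 8 of 23 alternatives. Among them were 4 of the 6 in which 1 array was left out, the methods' t-test, and the fit without array 3 of both groups, at -0.13. The sign turned without Hsp90ab1 in the reference, at 0.10, and with the median Ct, at 1.67. In the basement membrane, Col4a1 fell by 2.45 and Col4a3 did not pass at 0.23 (adjusted p = 0.52), with a mean Ct of 35.72 in DSS+DPG.

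Vtn, vitronectin, an adhesive protein of plasma and provisional matrix, was the structural gene that fell most. Its delta Ct was 5.11, 5.17 and 5.16 in DSS and 9.72, 9.60 and 9.66 in DSS+DPG, a 22.9-fold fall (-4.51, standard error 0.04, adjusted p = 2.3e-11, limma). With 7.79 to 7.87 the UN arrays were between both groups. The second listing named above holds a later Ct in DSS for Vtn, which would make its fall smaller. F13a1, the factor that crosslinks fibrin and marks tissue macrophages, fell by 1.96 and F3, tissue factor, by 0.91, which was 0.86 with the median Ct. Fga, a chain of fibrinogen, was at the limit of 38 in all DSS+DPG arrays, so no fold is given. Its fitted change of -0.47 did not pass (adjusted p = 0.37), and it passed at -2.47 with a limit of 40 cycles, whose value depends on the limit itself.

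Enzymes of the plasminogen system, which dissolves fibrin, and the metalloproteinases fell unevenly. Plat, tissue plasminogen activator, had a delta Ct of 3.19, 3.36 and 3.29 in DSS and of 7.21, 6.96 and 6.97 in DSS+DPG, a 13.6-fold fall (-3.77, standard error 0.08) that brought it below UN, at 5.77 to 5.89. Plaur, the receptor of urokinase on leukocytes, fell by 2.31 and Plau, urokinase itself, by 1.28. Plg, plasminogen, which the liver makes, was at the limit in all DSS+DPG arrays and was late in DSS, so no fold is given. Mmp9, the gelatinase of neutrophils, had 5.40, 5.46 and 5.44 in DSS and 9.08, 8.10 and 8.37 in DSS+DPG, a fall of 3.08 (standard error 0.22). Timp1, an inhibitor of these enzymes, fell by 2.26, Mmp2, the gelatinase of fibroblasts, by 1.64 and Mmp1a, a collagenase, by 1.11. With the median Ct Plau was at 0.49, Mmp2 at 0.13 and Mmp1a at 0.66, against 0.47 for the panel. Mmp7, matrilysin of the epithelium, rose by 0.68 (adjusted p = 0.0083, limma), from 9.94 to 9.99 in DSS to 8.86 to 9.62 in DSS+DPG, and changed by -0.14 with Itga3, Mif and Hsp90ab1, and the methods' t-test did not pass it. Among cathepsins, Ctsl of lysosomes fell by 1.68 and Ctsk, which digests collagen, by 1.38. With the median Ct Ctsl was at 0.09 and Ctsk at 0.39, both below the 0.47 of the panel. Ctsg, a granule protease of neutrophils, was at the limit in all DSS+DPG arrays and late in DSS, so no fold is given.

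**Figure D5:**
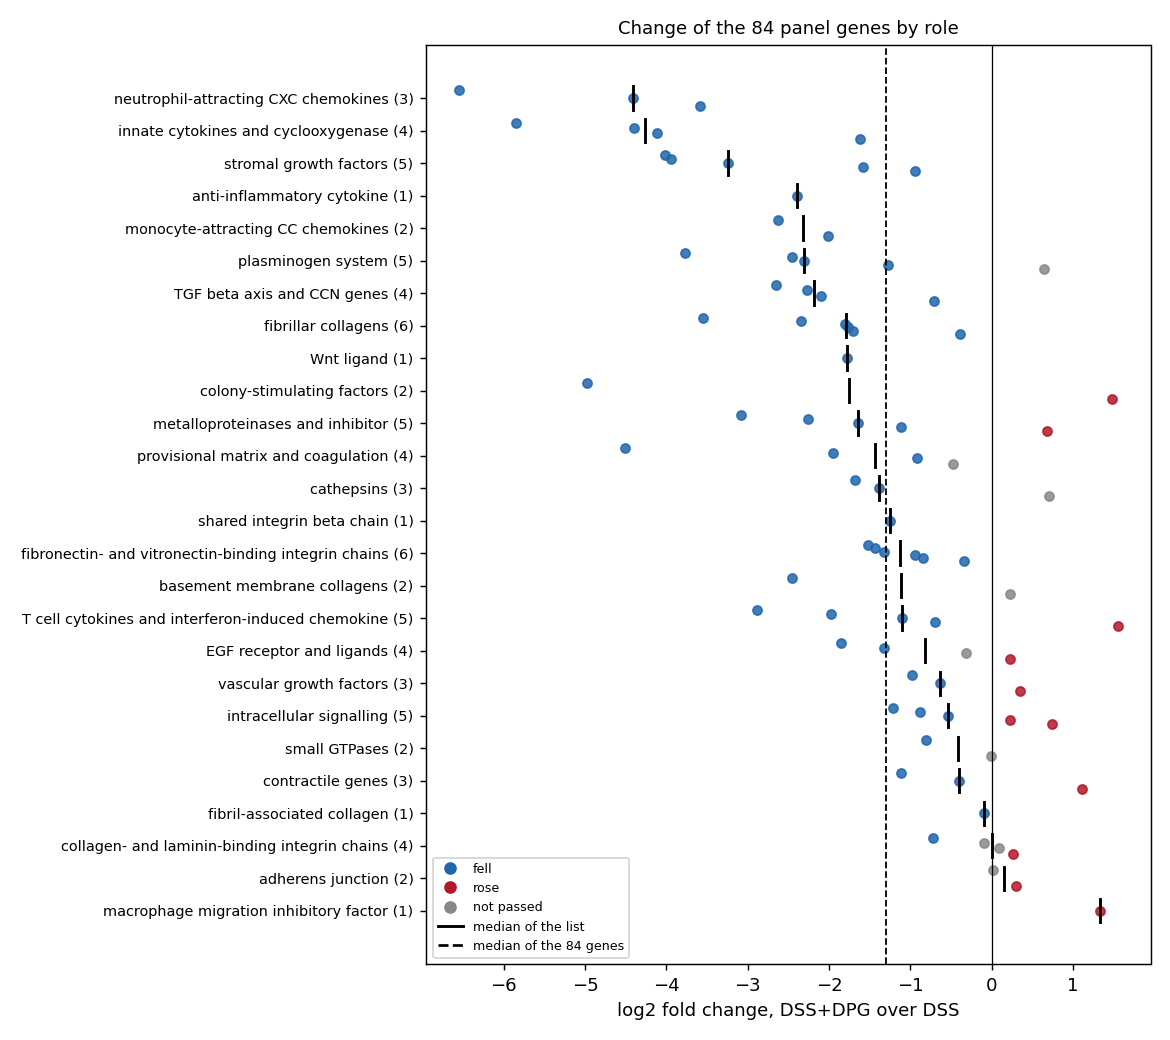
Log2 fold change in DSS+DPG over DSS (horizontal axis, reference of 5 housekeeping genes) of the 84 genes in 26 groups by role (vertical axis, number of genes in brackets), ordered by their median. Points are genes, solid bars group medians and the dashed line the panel median of -1.30. The neutrophil chemokines, innate cytokines and stromal growth factors lie at the top, and with the median Ct as reference all groups right of -1.77 are above 0.

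Among integrins, the receptors that tie cells to matrix, chains that bind fibronectin and vitronectin fell in 6 of 6 genes, beside 76.2% of all genes. The falls were 1.52 for Itgav, 1.43 for Itga5, 1.32 for Itga4, 0.94 for Itgb6, 0.84 for Itgb3 and 0.34 for Itgb5. With the median Ct all 6 were above 0. Itgav (0.25), Itga5 (0.34) and Itga4 (0.45) were then below the 0.47 of the panel, and the others above it. Itgb5 did not pass without Hsp90ab1 in the reference, at -0.14. Chains for collagen and laminin had a median near 0 over 4 genes. Itga1 fell by 0.73, Itga2 did not pass at -0.09 (adjusted p = 0.15), Itga6 did not pass at 0.09 (adjusted p = 0.18) and Itga3 rose by 0.26, from a delta Ct of 4.35, 4.41 and 4.39 to 4.10, 4.14 and 4.13. Itgb1, the chain that most of them share, fell by 1.26, and both Itga1 and Itgb1 were higher with the median Ct. The rise of Itga3 was 0.11 with Gapdh alone and did not pass. Both groups of chains overlapped in size, Itga1 having fallen more than Itgb5, and their difference was not tested.

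The adherens junction resisted. Cdh1, E-cadherin of epithelial cells, had a delta Ct of 1.78, 1.85 and 1.84 in DSS and of 1.53, 1.54 and 1.52 in DSS+DPG, a rise of 0.29 (standard error 0.05, adjusted p = 0.00038, limma) toward the UN level of 0.68 to 0.84. Ctnnb1, beta-catenin, its partner inside the cell, had 1.65, 1.71 and 1.72 in DSS and 1.67, 1.70 and 1.67 in DSS+DPG, and its change of 0.01 did not pass (adjusted p = 0.68). With Itga3, Mif and Hsp90ab1 as reference these changes were -0.53 and -0.81.

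Signalling inside the cell varied from fall to rise. Il6st, the receptor chain through which interleukin 6 signals, fell by 1.22 and Stat3, the factor downstream of Il6st, by 0.54, and both were higher with the median Ct. Mapk3, a kinase of growth factor signalling, rose by 0.74 (delta Ct 3.16, 3.19 and 3.13 in DSS, 2.46, 2.39 and 2.41 in DSS+DPG), but was at -0.09 with Itga3, Mif and Hsp90ab1. Of the GTPases that shape the cytoskeleton, Rac1 fell by 0.81 and Rhoa did not pass at -0.01 (adjusted p = 0.67). Among contractile genes, Tagln of smooth muscle fell by 1.12 and Acta2, smooth muscle actin, by 0.40, while Actc1, the actin of cardiac muscle, rose 2.15-fold with the 5 reference genes (1.10, standard error 0.10, adjusted p = 1.6e-05, limma). Rac1, Tagln and Acta2 were higher with the median Ct, and Actc1 was at -0.11 with raw Ct. The delta Ct of Actc1 was 10.91, 11.10 and 11.02 in DSS, 9.93, 9.88 and 9.91 in DSS+DPG and 7.69 to 8.10 in UN.

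Relative to untreated colon, the genes that fell at least 3.5-fold ended in different places. Of the 29, 18 had a mean level in DSS+DPG below that of UN and 11 above it, with no overlap between DSS+DPG and UN arrays in 16 and 10 of them. Those above held Cxcl3, Il6, Csf3, Il1b, Cxcl5, Il10, Ccl7, Plaur and Timp1, and those below held Vtn, Ptgs2, Plat, Mmp9, Col3a1 and the 3 fibroblast growth factors. The split was 19 and 10 with Itga3, Mif and Hsp90ab1, 17 and 12 with the median Ct and 21 and 8 with raw Ct.

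Markers of the cell types that a piece of colon holds moved differently, and fewer cells of a type cannot be told apart from less RNA per cell. The lists were drawn from the panel and share members with the classes above. Of 5 genes of neutrophils and macrophages, 4 fell, beside 76.2% of all genes, with a median fall of 4.95-fold over the list. Their summed level was 0.686 to 0.697 relative to the reference in DSS and 0.0564 to 0.058 in DSS+DPG. Ctsg was at or near the limit, and Il1b alone made 78% of the sum in DSS. All 7 fibroblast genes fell, beside 76.2% of all genes, with a median fall of 3.27-fold. Their summed level was 8.71 to 9.33 in DSS and 1.03 to 1.07 in DSS+DPG, and Col3a1 alone made 88.8% of it in DSS. Of 4 T cell genes 3 fell, beside 76.2% of all genes, while Cd40lg rose by 1.55. Their sum went from 0.00862 to 0.00885 in DSS to 0.00513 to 0.00609 in DSS+DPG, and Ifng alone made 79% of it in DSS. Of 3 smooth muscle genes 2 fell and 1, Actc1, rose, beside 76.2% and 13.1% of all genes. Their sum was 2.44 to 2.55 in DSS and 1.39 to 1.44 in DSS+DPG, and Tagln alone made 63.6% of it in DSS. Of 4 epithelial genes 2 rose and 1 fell, beside 13.1% and 76.2% of all genes. Their sum was 0.418 to 0.438 in DSS and 0.46 to 0.467 in DSS+DPG, and Cdh1 alone made 66.5% of it in DSS. All sums use the 5 reference genes. Every member shifts alike with another reference, by 1.77 with the median Ct or by -0.83 with Itga3, Mif and Hsp90ab1. With the first the smooth muscle and T cell sums turn into rises, and with the second the epithelial sum turns into a fall. How far these lists account for changes of single genes was not tested.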

How the data were processed

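Total RNA of mouse colon, pooled from 5 mice per group, was reverse transcribed and measured by SYBR green PCR for 40 cycles. The deposited values are raw Ct per well, on a log2 scale with no normalization, and the authors' group averages of Ct and delta Ct. The deposited mean Ct matched the raw Ct within 0.1 cycle in 96 of 96 wells of DSS and of DSS+DPG. The reference behind the deposited delta Ct was 24.48 in DSS and 24.86 in DSS+DPG, whereas the mean of the 5 housekeeping genes named in the methods was 22.23 and 23.44. All results were computed from the raw Ct, and deposited folds and p-values, which hold the authors' own comparisons, were not used.

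The fit of minus delta Ct used limma 3.58.1 (R 4.3.3) and all 9 arrays without a block, with 1 spread estimated over the 3 groups, after the procedure had been tested on 20 simulated data sets. Precision is limited by the number of arrays. The genes named are the 10 largest falls, the rises, the extremes of each class, all genes that did not pass or lay at the limit, and others within their role group. The members, lists and this rule were chosen with earlier results of these data known. The results of some single genes are not reported here, although they are part of every count. Alternatives were other references, limits of 35 and 40 cycles, only genes below 35 in every array, a fit of the 2 groups alone, the replicate number as a block, the methods' t-test, thresholds of 0.01, 2-fold and 5-fold, and leaving out arrays. Promoters were matched by gene symbol, and Python 3.11.15 with matplotlib 3.10.9 drew the figures.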

Additional observations from a re-analysis of the deposited data

How the results depend on the processing

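Counts of calls were within 1.5 times of those reported under the other housekeeping references, both limits, the fit of 2 groups, the t-test and the stricter threshold of 0.01. The median Ct as reference, Itga3 with Mif and Hsp90ab1, and raw Ct moved them, since each adds the same number to every gene. Genes that fell numbered 25 with the median Ct, genes that rose 48 with it, 2 with Itga3, Mif and Hsp90ab1 and 0 with raw Ct, and genes that fell at least 3.5-fold 11, 49 and 59 with the median Ct, the 3 genes and raw Ct. A threshold of 2-fold gave 48. Leaving out 1 array in turn gave 63 to 64 falls and 11 to 13 rises, and leaving out array 3 of both groups, chosen after seeing the data, 62 and 11. With the replicate number as a block 64 fell and 11 rose, as without it, and same-numbered arrays of DSS and DSS+DPG deviated together with r of 0.106, 0.119 and -0.0227 over 84 genes, so the numbers were not taken as pairs. The distance of the inflammatory class from the panel median was -1.10 with a limit of 35, -1.78 over genes below 35 and -1.35 to -1.25 with 1 array left out, and that of the remodeling enzymes -0.31 with a limit of 40 and -0.36 over genes below 35.

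These log2 fold changes changed sign. With the median Ct as reference they were Col5a3 0.00, Col5a1 0.06, Ctsl 0.09, Mmp2 0.13, Tnf 0.16, Igf1 0.19, Itgav 0.25, Itga5 0.34, Ctsk 0.39, Egfr 0.45, Itga4 0.45, Plau 0.49, Itgb1 0.52, Il6st 0.56, Tagln 0.66, Mmp1a 0.66, Il2 0.67, Angpt1 0.79, Hgf 0.83, Itgb6 0.83, F3 0.86, Itgb3 0.93, Rac1 0.96, Itga1 1.04, Tgfb1 1.06, Ifng 1.08, Pdgfa 1.14, Stat3 1.23, Fga 1.30, Acta2 1.37, Col1a1 1.39, Itgb5 1.43, Egf 1.45, Col14a1 1.67, Itga2 1.68 and Rhoa 1.76, and the class medians were 0.26 for remodeling enzymes, 0.56 for signal transduction, 0.79 for growth factors, 0.99 for adhesion molecules and 1.37 for cytoskeleton regulators. With raw Ct they were Ctnnb1 -1.20, Itga6 -1.12, Tgfa -0.99, Col4a3 -0.98, Itga3 -0.95, Cdh1 -0.92, Vegfa -0.86, Mmp7 -0.53, Mapk3 -0.47 and Actc1 -0.11. With Itga3, Mif and Hsp90ab1 they were Ctnnb1 -0.81, Itga6 -0.74, Tgfa -0.60, Itga3 -0.57, Cdh1 -0.53, Vegfa -0.48, Mmp7 -0.14 and Mapk3 -0.09. Ctnnb1 was -0.14 with Gapdh alone, -0.09 without Actb and -0.11 without B2m, and without Hsp90ab1 Col14a1 was 0.10 and Rhoa 0.19. With a limit of 35 cycles Il2 was 1.21 and Fga 1.19, and with 1 array left out Fga ranged from -0.83 to 0.18. Genes at or near the limit of detection have no depth to set a fold.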
